A study of Mus musculus with 16 samples.

Results

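Sg1 is the switch region of the IgG1 constant gene in the mouse heavy chain locus Igh, and it was examined here as a partner of DNA breaks made in Myc. Its members were the junctions on chromosome 12 that the deposited lists name Sg1, 776 of 33478 junctions outside chromosome 15 and of 141166 in all, over 16 libraries in 5 groups. No junction on another chromosome carried the name, and 6 junctions within the same stretch carried other names or none. In high-throughput genome-wide translocation sequencing (HTGTS), the ends of cut DNA (bait) are amplified with whatever genomic end (prey) has joined them, and each junction gives 1 prey position. All cells were splenic IgM+ B cells of 129sv mice aged 6 to 8 weeks in which a cassette of 25 I-SceI sites had been placed in the first intron of Myc, on chromosome 15, in 1 allele only. I-SceI came with GFP from a retrovirus.

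Under anti-CD40 at 1 µg/mL with IL4 at 20 ng/mL, with infection at 24 h and harvest at day 4, there were 4 libraries of genotype WT, 3 of genotype ATM-/- and 3 of WT cells given the ATM kinase inhibitor KU55933 at 10 µM from infection onward. Under RP105 at 2 µg/mL, with infection at 48 h and harvest at day 5, there were 3 libraries labelled WT and 3 labelled ATM-/-. The labels do not state whether replicates came from separate mice, so p-values measure the spread between libraries, which may be technical. Libraries held 4484 to 18264 junctions, of which 586 to 5604 lay outside chromosome 15. Untreated and ATM-/- anti-CD40/IL4 libraries were read on a 454 sequencer and all others on a MiSeq, as their read names show, so inhibitor or stimulus and sequencer cannot be told apart. Junctions outside chromosome 15 made up 31.5% ± 2.87 (SD, n = 3) of all junctions in ATM-/- against 17.0% ± 1.74 (SD, n = 4) in WT cells under anti-CD40/IL4. Under RP105 the order was the opposite, 10.1% ± 0.776 (SD, n = 3) in the libraries labelled ATM-/- against 21.7% ± 0.536 (SD, n = 3) in those labelled WT, so both RP105 groups are named by their labels here.

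During class switch recombination a B cell exchanges the heavy chain constant region it uses. The cytidine deaminase AID, targeted by transcription through repetitive switch regions, starts breaks in the donor Smu and in an acceptor, and the DNA between them is lost. AID prefers cytosines in short hotspots such as AGCT, which reads the same on both strands. IL4 with CD40 signalling induces transcription through Sg1 and through Se, the IgE switch region. ATM is a kinase that signals double-strand breaks, and its loss or inhibition impairs the joining of broken switch regions.

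On the mm9 build the Sg1 junctions ran from chr12:114569089-114577072, a stretch of 7984 bases between the junctions named Sg2b and those named Sg3. Igh is transcribed toward lower coordinates, so the promoter side of Sg1 is the end with higher coordinates, and the sequences below are given 5′ to 3′ on the transcribed sense strand, which is the minus strand of mm9. The bases came from the target sequence that the deposited files give for each prey alignment, which covered 7310 of the 7984 positions with 0 conflicts between alignments. The core of Sg1 is a tandem repeat with a period of 49 bases. In the 1 kb window from 114574000, 93.3% of bases matched the base 49 positions away, in the window below it 72.1%, and in the windows from 114575000 and 114576000 36.8% and 47.5%. The median over all shifts was 26.8% to 27.8% in those 4 windows. The 4 successive units below show the repeat, with 98.6% identity between neighbours and the AGCT hotspot in capitals. Unit 1 is the most promoter-proximal, at chr12:114574389-114574437, and unit 4 ends the row at chr12:114574242-114574290.
unit 1: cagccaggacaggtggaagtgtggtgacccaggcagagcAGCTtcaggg
unit 2: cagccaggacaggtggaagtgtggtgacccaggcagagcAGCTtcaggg
unit 3: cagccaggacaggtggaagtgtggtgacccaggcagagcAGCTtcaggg
unit 4: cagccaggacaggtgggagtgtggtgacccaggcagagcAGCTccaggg

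Each unit carried 1 AGCT. Of all 49 base windows of Sg1 with known bases, 61.3% held one. Of all 300 base windows 98.1% held an AGCT and 16.8% a GGCC. Across the region there were 121 AGCT motifs, from 4 and 5 in the lowest 1 kb windows to 24 in the window from 114575000. On the sense strand G made up 31.1% to 41.3% of bases in the 8 windows of at least 599 known bases, and C 16.4% to 21.5%.

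**Figure D1:**
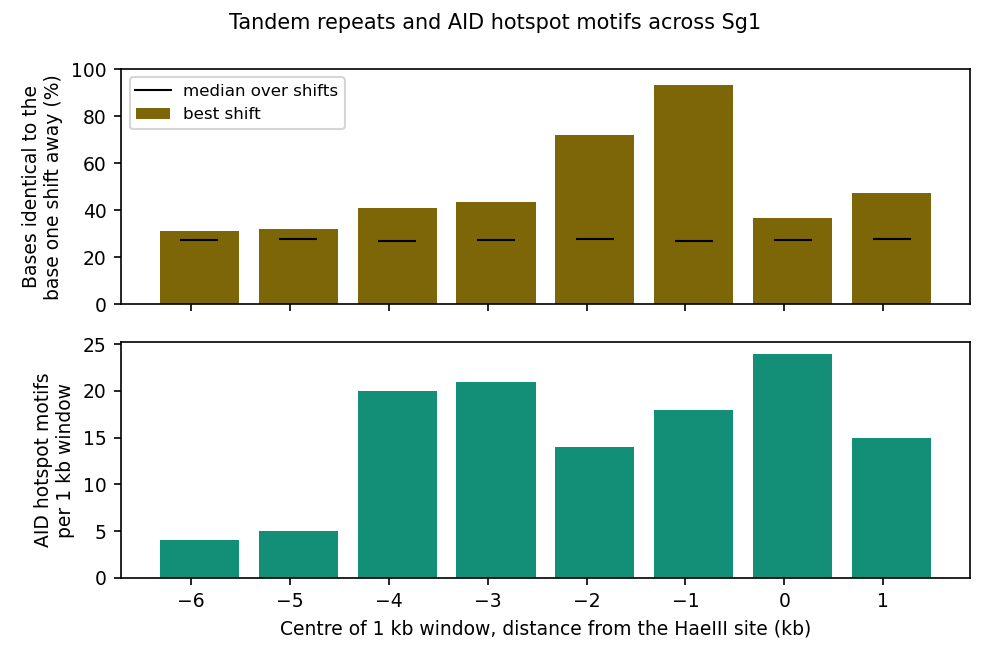
Sequence features of Sg1 in 1 kb windows, by distance (kb) of the window's centre from the HaeIII site in the promoter-proximal part; the promoter side is on the right. Bars in the upper panel give the percentage of bases identical to the base one shift away at the best shift, black ticks the median over shifts, and bars in the lower panel the number of AGCT hotspots; self-identity peaks at 93.3% in the window left of the site.

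The other feature that the results turn on is GGCC, the recognition sequence of HaeIII, with which the genomic DNA was cut before adapters were joined to the prey end. The known bases of Sg1 held 8 GGCC, and 7 of them lay at or below 114571638. The remaining site, at 114575414 to 114575417, was 3779 bases from the next one below, and the 1658 bases above it held none. The 300 bases around it, at chr12:114575266-114575565, show the site and 3 AGCT hotspots in capitals.
Sg1 around the HaeIII site: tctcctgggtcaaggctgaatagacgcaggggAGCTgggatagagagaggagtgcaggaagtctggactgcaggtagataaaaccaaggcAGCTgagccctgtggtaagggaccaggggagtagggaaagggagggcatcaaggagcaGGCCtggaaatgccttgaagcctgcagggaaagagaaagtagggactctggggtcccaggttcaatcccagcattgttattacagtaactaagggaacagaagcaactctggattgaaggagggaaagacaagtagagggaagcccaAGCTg

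The second stretch, of 150 bases at chr12:114576572-114576721, lies on the promoter side, away from any HaeIII site, and has 2 AGCT hotspots in capitals. It was picked as the 150 bases with most junctions of KU55933 replicates 2 and 3 more than 500 bases from the site, so its count in those libraries is a description.
Sg1 promoter side: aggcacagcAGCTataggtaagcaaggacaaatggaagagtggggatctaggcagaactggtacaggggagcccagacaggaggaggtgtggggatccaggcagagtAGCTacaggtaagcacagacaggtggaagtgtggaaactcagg

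The 300 bases around the site held 79 of 333 Sg1 junctions of 8 anti-CD40/IL4 libraries and 32 of 432 in KU55933 replicates 2 and 3. The 150 bases on the promoter side held 4 of 333 and 27 of 432.

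Those 2 libraries stood apart from all others in how their prey ended. A prey cut by HaeIII ends in GG, and 81.5% to 91.8% of junctions did so in 14 libraries, KU55933 replicate 1 included with 86.0%. In KU55933 replicates 2 and 3 the share was 35.2% and 34.8%, although replicates 1 and 2 came from the same sequencing run. Among Sg1 junctions the share was 54.0% to 71.4% in the other 8 anti-CD40/IL4 libraries and 10.5% and 15.7% in these. Both carry the same labels and protocol text as the rest. They held 432 of the 522 Sg1 junctions with KU55933, so values with KU55933 replicate 1 alone are given beside comparisons with the inhibitor.

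Sg1 junctions clustered at the HaeIII site in the libraries with HaeIII ends and were spread more widely over the region in the other 2. In the 8 libraries with HaeIII ends, 184 of 333 Sg1 junctions (55.3%) lay within 500 bases of the site, and 168 of these 184 faced it. Below the site 75 were on the plus strand and 13 on the minus strand, and above it 93 were on the minus strand and 3 on the plus strand. In KU55933 replicates 2 and 3, 101 of 432 (23.4%) lay within 500 bases, of which 53 faced the site and 48 faced away. By library, the share of Sg1 junctions that faced the site from within 500 bases was 40.0%, 63.2%, 48.0% and 45.5% in WT, 54.3%, 55.6% and 64.5% in ATM-/-, 45.6% in KU55933 replicate 1, and 14.0% and 10.3% in replicates 2 and 3. The last 2 values lie below all others. Prey that ended exactly at the cut made up 33.3% to 57.9% of Sg1 junctions in the 8 libraries and 5.70% and 6.37% in the other 2. Such prey end in GG, the trait by which the 2 sets of libraries were told apart, so this contrast is not separate from that split. A prey part had a median length of 92 to 128 bases in the 16 libraries. The part of the HaeIII digest in where Sg1 junctions were seen was not tested.

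**Figure D2:**
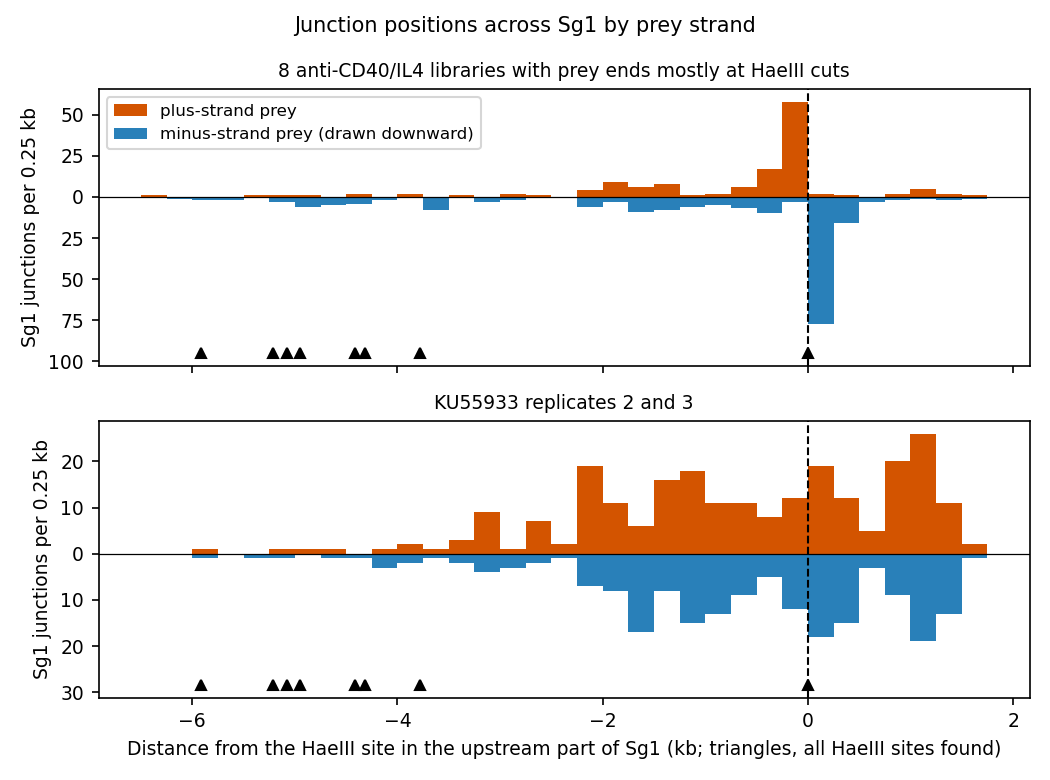
Number of Sg1 junctions per 0.25 kb by distance (kb) from the HaeIII site in the promoter-proximal part (dashed line). Plus-strand prey are drawn upward and minus-strand prey downward, with triangles at all HaeIII sites. The promoter side is on the right. In the 8 libraries of the upper panel 168 of 333 junctions face the site from within 500 bases, and in KU55933 replicates 2 and 3 (lower panel) 53 of 432.

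The promoter-proximal end showed the contrast most plainly. The window from 114576000 held 7 of 132 Sg1 junctions in WT, 7 of 111 in ATM-/- and 3 of 90 in KU55933 replicate 1, against 59 of 228 and 44 of 204 in replicates 2 and 3. In the window from 114575000, which has the site, the counts were 65, 66, 45, 57 and 47 in the same order. The highly repetitive window from 114574000 held 18, 14, 17, 48 and 48, and that from 114573000 held 18, 10, 13, 36 and 40. Below 114573000 the region held 103 of the 776 junctions over all groups. In all, 688 distinct positions were used. The position used most often was 114575576, with 7 junctions in 7 libraries of 4 groups, all on the minus strand, 159 bases above the end of the HaeIII site. A further limit of the repeat is that 31 junctions (3.99%) were aligned across more than 500 bases of reference, all of them in WT and ATM-/- anti-CD40/IL4 libraries, so the position within the repeat is uncertain for those.

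The share of junctions near AGCT was slightly above that of bases of the region, and the difference was not tested. Of the 776 junctions 184 (23.7%) lay within 4 bases of an AGCT, against 18.4% of known bases. Of the known bases above the next HaeIII site below, which ends at 114571638, 20.9% did so. With bases weighted by the junctions of their 1 kb window it was 21.2%. The share was 24.0% (80 of 333) in the libraries with HaeIII ends and 23.8% (103 of 432) in KU55933 replicates 2 and 3. By group it was 22.7% in WT, 27.0% in ATM-/- and 23.6% with KU55933. These are descriptions, since junctions of a library are not replicates.

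The level of Sg1 was compared between genotypes first. In WT cells under anti-CD40/IL4, Sg1 took 2.30%, 2.09%, 3.32% and 4.51% of junctions outside chromosome 15, from 30, 19, 50 and 33 junctions. In ATM-/- cells it took 1.60%, 1.66% and 1.62%, from 35, 45 and 31 junctions. Every ATM-/- library was below every WT library, and the ATM-/- libraries lay close together while WT replicates 3 and 4 were the highest. The exact (Clopper-Pearson) 95% interval of the lowest WT share, 1.26% to 3.24%, nevertheless takes in the ATM-/- values. The means were 1.63% ± 0.0309 (SD, n = 3) and 3.05% ± 1.11 (SD, n = 4), a difference of -1.43 percentage points with a two-sided exact permutation p = 0.0857 and an adjusted p = 0.286 over 30 tests. Without WT replicate 4 the difference was -0.941. By edgeR's quasi-likelihood test the log2 fold change was -0.89 with an SE of 0.55 (adjusted p = 0.735 over 162 gene names). In this comparison edgeR called 0 of the 162 (percent called 0), with 8 at an unadjusted p under 0.05, and DESeq2 called 0. In the pair of sequencing runs that held both genotypes, the log2 ratio of the shares was -1.0 and -1.48. Those runs held WT replicates 3 and 4, the highest of WT, beside ATM-/- replicates 2 and 3.

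The difference between genotypes depended on what Sg1 was counted against. Of all junctions, chromosome 15 included, Sg1 made up 0.515% ± 0.170 (SD, n = 4) in WT and 0.512% ± 0.0522 (SD, n = 3) in ATM-/- cells, and with all junctions as library size the log2 fold change was -0.00456. Of junctions beyond 1 Mb of the break it made up 2.45% ± 0.904 and 1.13% ± 0.0221. With TMM factors and with DESeq2, which take their scale from the genes, the log2 fold change was -0.20 and -0.03. The mean number of Sg1 junctions per junction of any kind thus differed by less than the spread between libraries.

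**Figure D3:**
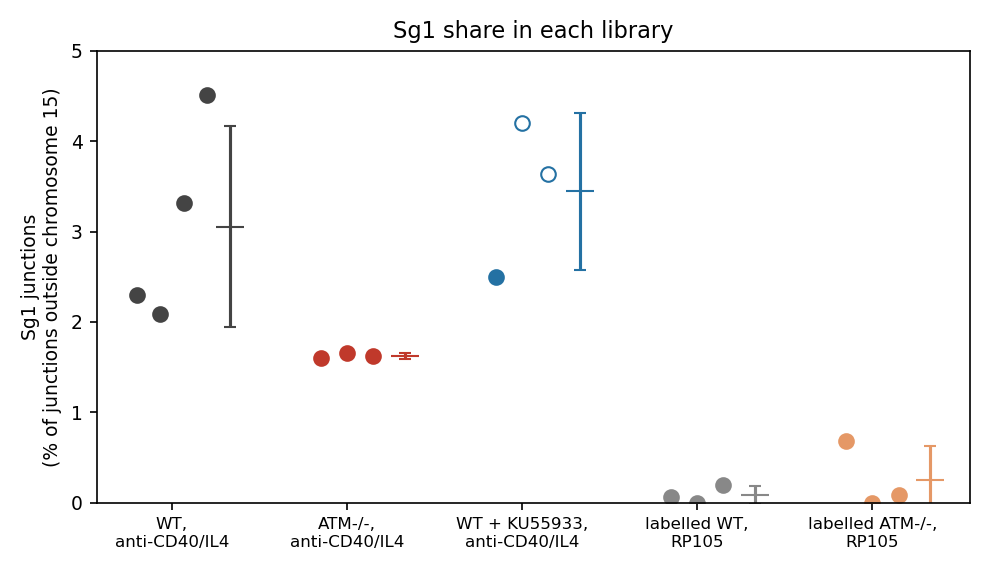
Sg1 junctions as a percentage of junctions outside chromosome 15, one point per library, with the mean and SD of each group to the right of its points; open points are KU55933 replicates 2 and 3. The 3 ATM-/- libraries lie at 1.60% to 1.66%, below all 4 WT libraries at 2.09% to 4.51%, and the RP105 libraries at 0% to 0.683%.

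With KU55933, Sg1 took 2.50%, 4.20% and 3.64% of junctions outside chromosome 15, from 90, 228 and 204 junctions. On this denominator the values lie within the WT range, and the library with HaeIII ends is the lowest of the 3. The mean was 3.44% ± 0.867 (SD, n = 3), 0.391 percentage points above WT (two-sided exact permutation p = 0.600, adjusted p = 0.692). With replicate 1 alone the difference was -0.557, and without replicate 2 alone it was 0.0147. EdgeR gave 0.19 (SE 0.52, adjusted p = 0.876), in a comparison in which 1 of 162 names passed, percent called 0.617, and that name was Se. The direction and the size moved with the setting. Without KU55933 replicates 2 and 3 the log2 fold change was -0.27 (SE 0.59), with only prey ending in GG it was -0.49 (SE 0.43), and with the library size beyond 1 Mb of the break it was -0.00459. It was 1.10 (SE 0.53) with all junctions as library size, 1.02 (SE 0.55) with TMM factors and 1.10 (SE 0.42) with DESeq2. None of these passed after adjustment, with an adjusted p of 0.181, 0.239 and 0.356 for the last 3.

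Of all junctions, Sg1 made up 0.855%, 1.34% and 1.12% with KU55933, against 0.435%, 0.322%, 0.597% and 0.706% in WT. On this denominator every inhibitor library, the one with HaeIII ends included, lay above every WT library. The means were 1.10% and 0.515%, with a two-sided exact permutation p = 0.0286, the smallest that 3 against 4 libraries allow, and an adjusted p = 0.286. Junctions outside chromosome 15 made up 32.3% ± 1.82 (SD, n = 3) of all junctions with KU55933.

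ATM-/- and inhibitor libraries were then set against each other. Sg1 was lower in every ATM-/- library than in every KU55933 library, by 1.82 percentage points in the means (two-sided exact permutation p = 0.1, the smallest that 3 against 3 libraries allow, adjusted p = 0.286). EdgeR gave -1.08 (SE 0.56, adjusted p = 0.378), called 0 of 162 names (percent called 0), with 17 at an unadjusted p under 0.05, and DESeq2 called 0. Against KU55933 replicate 1 alone the log2 fold change was -0.62 (SE 0.59), and with only prey ending in GG it was -0.30 (SE 0.45). With the replicate number as a block it was -1.08 (SE 0.60, adjusted p = 0.521), and 2 of 162 names were called. The absent protein and the inhibited kinase cannot be told apart here from the sequencer.

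RP105 is a Toll-like receptor homologue on B cells, and the stimulus of that name drives their proliferation without IL4. Few junctions reached Sg1 under it. The libraries labelled WT had 1, 0 and 5 Sg1 junctions, which is 0.0616%, 0% and 0.200%, and a count of 0 of 956 allows a share of up to 0.314%. The libraries labelled ATM-/- had 4, 0 and 1, which is 0.683%, 0% and 0.0865%, and a count of 0 of 744 allows up to 0.403%. Every RP105 library was below every anti-CD40/IL4 library. Sg1 fell by 4.68 on the log2 scale from anti-CD40/IL4 to RP105 in the libraries labelled WT (edgeR, SE 0.79, adjusted p = 2.43e-07). Of the 162 names 3 passed, percent called 1.85, and the other two were Se with -5.65 (SE 0.79) and Smu with -3.77 (SE 0.70). The difference in share was -2.97 percentage points, with an exact permutation p = 0.0286, the smallest that 4 against 3 libraries allow, and an adjusted p = 0.286. The stimulus cannot be told apart here from the later infection and harvest or from the sequencer.

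In the libraries labelled ATM-/-, Sg1 also fell from anti-CD40/IL4 to RP105, with an edgeR estimate of -2.91 (log2, SE 0.86, adjusted p = 0.0361), and 3 of 162 names passed (percent called 1.85), Se among them, while Smu had -1.52 (SE 0.75, adjusted p = 0.421). The call of Se was lost without labelled ATM-/- RP105 replicate 3 (adjusted p = 0.0673) and with no filter on low counts (adjusted p = 0.135). Smu passed without replicate 1 (-2.62, adjusted p = 0.0387), with all junctions as library size (-3.14), with TMM factors (-3.10) and with DESeq2 (-2.91). The Sg1 fall was larger with all junctions as library size (-4.50, adjusted p = 4.76e-06), with TMM factors (-4.43, adjusted p = 2.49e-05) and with DESeq2 (-4.28, adjusted p = 7.63e-06). Its call was lost with the library size beyond 1 Mb of the break (-2.71, adjusted p = 0.0614) and with no filter on low counts (-2.91, adjusted p = 1.00). It was also lost without any 1 of the 3 ATM-/- anti-CD40/IL4 libraries (adjusted p = 0.0914, 0.0918 and 0.0643) and without labelled ATM-/- RP105 replicate 2 (-2.37, adjusted p = 0.0931) or replicate 3 (-2.37, adjusted p = 0.467). Replicate 1, with 4 of the 5 junctions, stood above the others, and without it the log2 fold change was -4.82. Both stimulus comparisons share their anti-CD40/IL4 libraries with the comparisons above.

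Between the labelled genotypes under RP105 edgeR put Sg1 0.87 higher in ATM-/- (log2, adjusted p = 0.785, SE 1.18) on 11 junctions in all. EdgeR called 0 of 162 names (percent called 0), with 4 at an unadjusted p under 0.05, and DESeq2 called 0. The sign turned with TMM factors (-0.14), with all junctions as library size (-0.17), with DESeq2 (-0.21) and without labelled ATM-/- replicate 1 (-1.03). Within the pair of runs that held both labels, the shares were 0.0865% (labelled ATM-/-) against 0.200% (labelled WT) and 0.341% against 0%. The difference of the genotype effects between stimuli was 1.77 (SE 1.33, adjusted p = 0.588). For the interaction edgeR called 0 names (percent called 0), with 12 at an unadjusted p under 0.05, and DESeq2 called 0.

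Sg1 was next set beside the other switch regions. Smu, the donor, lay at chr12:114661032-114664838 with 795 junctions, and Se, the IgE acceptor, at chr12:114512619-114515455 with 405. The remaining acceptors were rare, with 14 junctions in Sg3, 7 in Sg2b, 10 in Sg2a and 11 in Sa over all 16 libraries. Smu took 4.51%, 4.73%, 3.85% and 6.16% of junctions outside chromosome 15 in WT, 1.32%, 2.17% and 1.20% in ATM-/-, and 3.11%, 3.30% and 2.82% with KU55933. Se took 5.59%, 3.74%, 4.05% and 2.74% in WT, 1.09%, 1.36% and 0.837% in ATM-/-, and 1.83%, 1.09% and 0.196% with KU55933. On this denominator both were lower in every ATM-/- and every inhibitor library than in every WT library, whereas Sg1 in the inhibitor libraries lay within the WT range. Of all junctions, Se took 0.627%, 0.346% and 0.0602% with KU55933 against 0.428% to 1.06% in WT, so replicate 1 lay within the WT range. Smu took 1.06%, 1.05% and 0.865% of all junctions with KU55933 against 0.692% to 0.963% in WT, and every inhibitor library lay above 3 of the 4 WT libraries. In ATM-/- against WT, edgeR's log2 fold change was -1.87 for Se (SE 0.54, adjusted p = 0.0898) and -1.60 for Smu (SE 0.57, adjusted p = 0.439). Se passed in 4 of 13 alternatives. These were only the compared groups fitted (adjusted p = 4.88e-06), GG ends (0.00222), at least 30 junctions per name (0.0162) and beyond 1 Mb (0.0370). Smu passed in 2 of 13, the compared groups alone (4.02e-05) and GG ends (0.0206). With all junctions as library size the values were -1.02 and -0.70. No fit without 1 library passed for either. With KU55933 Se had -1.99 (SE 0.53, adjusted p = 0.0305) and Smu -0.64 (SE 0.54, adjusted p = 0.570). The Se call was lost with KU55933 replicate 1 alone (-1.16, adjusted p = 0.257), with all junctions as library size (-1.05, adjusted p = 0.181), with TMM factors (-1.34, adjusted p = 0.104), with no filter (adjusted p = 0.931) and with DESeq2 (-1.23, adjusted p = 0.799). It was also lost without WT replicate 1 or 3 (adjusted p = 0.198 and 0.0796) and without KU55933 replicate 2 or 3 (adjusted p = 0.195 and 0.0585). The sign of Smu turned with all junctions (0.30), TMM factors (0.18) and DESeq2 (0.28).

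Among junctions named for any switch region, Sg1 made up a larger part in the means of the ATM-/- and the KU55933 libraries than in that of WT. It was 18.4%, 19.8%, 29.1% and 33.7% in WT, 39.3%, 31.7% and 43.1% in ATM-/-, and 33.2%, 48.2% and 53.3% with KU55933. WT replicate 4 lies above the lowest library of each other group. The means were 25.2% ± 7.35 (SD, n = 4), 38.0% ± 5.79 (SD, n = 3) and 44.9% ± 10.4 (SD, n = 3). Against WT, the exact permutation p was 0.114 for ATM-/- and 0.0857 for KU55933, both with an adjusted p = 0.286. Of the junctions in the 2 acceptors that IL4 induces, Sg1 and Se together, Sg1 had 29.1%, 35.8%, 45.0% and 62.3% in WT, 59.3%, 54.9% and 66.0% in ATM-/-, and 57.7%, 79.4% and 94.9% with KU55933. These did not pass either, with an exact permutation p = 0.143 (adjusted p = 0.330) for ATM-/- and p = 0.0857 (adjusted p = 0.286) for KU55933. In KU55933 replicate 1, the one with HaeIII ends, both shares (33.2% and 57.7%) fell within the WT range. In KU55933 replicates 2 and 3, prey ended in GG in 52.5% and 63.6% of Se junctions, out of only 59 and 11. The shares were 30.7% and 31.6% of Smu junctions (out of 179 and 158) and 10.5% and 15.7% of Sg1 junctions (out of 228 and 204).

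**Figure D4:**
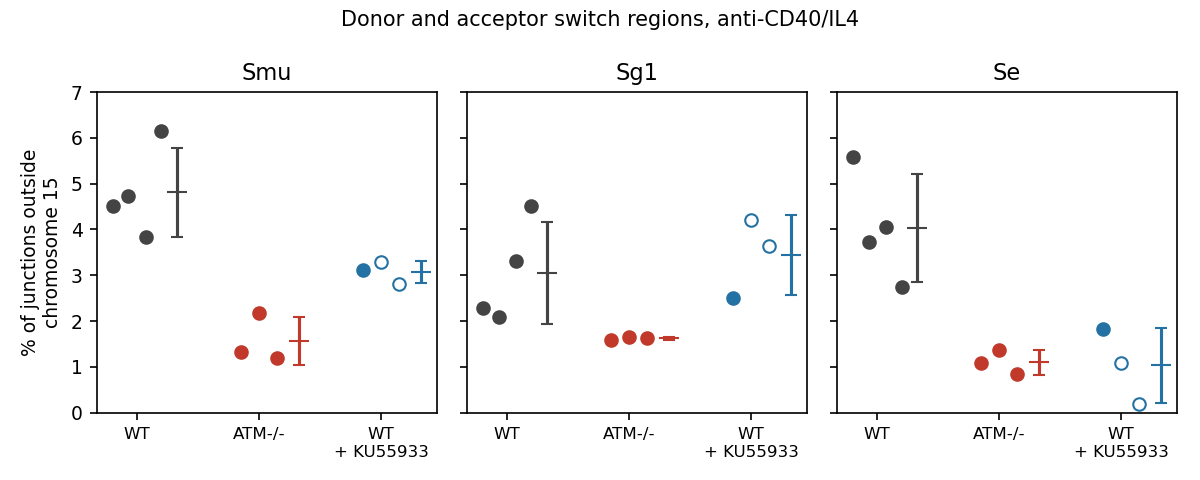
Percentage of junctions outside chromosome 15 in Smu, Sg1 and Se, one point per anti-CD40/IL4 library, with mean and SD to the right; open points are KU55933 replicates 2 and 3. With KU55933, Se lies at 0.196% to 1.83%, below all WT libraries, while Sg1 lies at 2.50% to 4.20%, within the WT range of 2.09% to 4.51%; of all junctions, the inhibitor libraries' Sg1 share (0.855% to 1.34%) is above that of WT (0.322% to 0.706%).

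The list of other switch regions held 7 names, the 6 above and Sg2c, which no junction carried, and 5 of them had at least 10 junctions, the minimum for the fit. In ATM-/- against WT 0 of the 5 passed in either direction at the reported setting (percent called 0 over all names). The median log2 fold change was -1.87, which is the value of Se, against 0.004 over all 162 names. Sg3 alone was positive, with 2.56. Sa, Sg2a and Sg3 had only 11, 10 and 14 junctions over all libraries, and SEs of 1.60, 1.62 and 2.05 in this comparison. With KU55933 1 of 5 passed downward and 0 upward (percent called 0.617), with a median of -0.32, the value of Sg2a, against 0.48. From anti-CD40/IL4 to RP105 2 of 5 passed downward in the libraries labelled WT and 1 of 5 in those labelled ATM-/- (percent called 1.85 in each). In both, 0 passed upward. In the libraries labelled WT 1 of 5 was positive, Sg3 with 5.07 (edgeR, SE 1.73, adjusted p = 0.0815). It had 9 junctions there and 0 in WT under anti-CD40/IL4. In those labelled ATM-/- 2 of 5 were positive, with Sg3 at 0.41 (SE 1.78). The list of 18 AID targets outside Igh had 12 measured members, and 0 of them passed in any comparison at the reported setting. Their median log2 fold change was -0.03 in ATM-/- against WT, with 6 of 12 positive, and 1.36 with KU55933 against WT, with 10 of 12 positive, beside 0.48 over all names. The KU55933 libraries held 14642 of the 33478 junctions outside chromosome 15. A name high with KU55933 could thus reach the minimum of 10 junctions through that group, so the medians with KU55933 are descriptions only. With KU55933 replicate 1 alone, 9 members were measured, 8 were positive, and the median was 1.73 beside 0.29 over 91 names. With all junctions as library size 6 of 12 passed upward with KU55933, beside 15 of 162 names called in either direction. With TMM factors it was 5 of 12 beside 10 of 162, and with only prey ending in GG 2 of 9 beside 4 of 90. From anti-CD40/IL4 to RP105 in the libraries labelled WT the members' median was -2.02, with 0 of 12 positive, beside -0.16 over all names. Cd79b and Mef2c stood at 0 in this comparison, without an SE. The RP105 groups held only 5076 (labelled WT) and 2486 (labelled ATM-/-) junctions outside chromosome 15. A name high under anti-CD40/IL4 could thus reach the minimum through those libraries, so this median too is a description only.

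Over the 16 libraries, the names whose share of junctions outside chromosome 15 was ordered most like that of Sg1 were Smu with a Spearman rho of 0.88, Il21r with 0.85, Il4ra with 0.79, Pim1 with 0.76 and Se with 0.75, out of 28 names with at least 30 junctions. Il21r and Il4ra encode the receptors for IL21 and IL4, and Pim1 encodes a kinase. The points share their denominator and fall into 2 stimuli, so the values describe these libraries only. Il4ra took 0.470% ± 0.276 (SD, n = 4) in WT, 0.539% ± 0.246 (SD, n = 3) in ATM-/- and 1.30% ± 0.350 (SD, n = 3) with KU55933 under anti-CD40/IL4. Il21r took 0.161% ± 0.0405, 0.127% ± 0.0503 and 0.494% ± 0.152 in the same order. Both were at or below 0.143% in the means of the RP105 groups.

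Both orientations of the prey were used. In the WT libraries 40.0%, 52.6%, 48.0% and 39.4% of Sg1 junctions were on the plus strand, in ATM-/- 40.0%, 44.4% and 32.3%, and with KU55933 36.7%, 54.8% and 54.9%. The groups overlap, and KU55933 replicates 2 and 3 are the highest of all 10. Against WT the exact permutation p was 0.286 for ATM-/- (adjusted p = 0.487) and 0.629 for KU55933 (adjusted p = 0.698). With KU55933 replicate 1 alone its difference from WT turned from 3.79 to -8.34 percentage points. Within the 10 libraries, Sg1 had 44.3% ± 7.96 (SD, n = 10) on the plus strand and junctions outside chromosomes 12 and 15 had 50.1% ± 1.32 (SD, n = 10). Sg1 was higher in 3 of 10 libraries, and an exact sign-flip permutation test of the paired differences gave p = 0.0547 (adjusted p = 0.286). The mean difference was -5.80 percentage points. It was -8.74 in the 8 libraries left without KU55933 replicates 2 and 3 (exact p = 0.0156, adjusted p = 0.200) and -12.6 with only prey ending in GG (exact p = 0.00195, adjusted p = 0.0586).

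The position within Sg1 did not pass a test between groups. The median junction lay 5.77, 6.14, 6.16 and 6.06 kb from the low end of the region in WT, 6.26, 6.17 and 6.21 kb in ATM-/- and 6.05, 6.04 and 5.65 kb with KU55933. Every ATM-/- library was above every library of the other groups, by a small distance: the means of ATM-/- and WT differed by 0.178 kb (exact permutation p = 0.114, adjusted p = 0.286). Without WT replicate 1 the difference was 0.0895 kb, and with only prey ending in GG it was -0.012 kb. The mean of KU55933 minus that of WT was -0.120 kb, and 0.014 kb with KU55933 replicate 1 alone. The part of the region above its midpoint, on the promoter side, held 80.8% ± 5.85 (SD, n = 4) of Sg1 junctions in WT, 87.8% ± 8.45 (SD, n = 3) in ATM-/- and 87.5% ± 0.770 (SD, n = 3) with KU55933, with an exact permutation p = 0.286 and p = 0.114 against WT (adjusted p = 0.487 and 0.286). KU55933 minus WT was 6.74 percentage points, and 5.88 with KU55933 replicate 1 alone.

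The structure of the joins was read from the gap between bait and prey on each read, where a negative gap means that both ends could claim the same bases (microhomology), 0 means a direct join and a positive gap means inserted bases. This meaning of the gap was inferred from the values and reads. Joins with a gap of up to 20 bases either way were classed. That left out 19 of 90 Sg1 joins in KU55933 replicate 1, 46 of 228 in replicate 2 and 7 of 204 in replicate 3. Per library, 1 to 5 were left out in WT and 1 to 6 in ATM-/-. The values below describe only the classed joins, an uneven part of each library. WT libraries had 66 joins with microhomology, 29 direct and 26 with insertions out of 121, ATM-/- libraries 65, 10 and 27 out of 102, and KU55933 libraries 265, 70 and 115 out of 450. Direct joins made up 37.0%, 33.3%, 20.0% and 12.9% in WT, 10.3%, 4.55% and 17.2% in ATM-/-, and 28.2%, 14.8% and 11.7% with KU55933. WT replicate 4 lies within the ATM-/- range, WT replicates 3 and 4 lie within the KU55933 range, and KU55933 replicate 1 is well above the other 2. The means were 25.8% ± 11.3 (SD, n = 4), 10.7% ± 6.36 (SD, n = 3) and 18.2% ± 8.75 (SD, n = 3), with an exact permutation p = 0.114 for ATM-/- against WT (adjusted p = 0.286) and p = 0.371 for KU55933 against WT (adjusted p = 0.522). KU55933 minus WT was -7.59 percentage points, and turned to 2.35 with KU55933 replicate 1 alone.

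Microhomology at Sg1 joins averaged 1.32 ± 0.555 bases (SD, n = 4) in WT, 1.85 ± 0.625 (SD, n = 3) in ATM-/- and 1.76 ± 0.630 (SD, n = 3) with KU55933, counting direct and inserted joins as 0. By library it was 1.00, 0.778, 1.47 and 2.03 in WT, 1.21, 2.45 and 1.90 in ATM-/-, and 1.13, 1.77 and 2.39 with KU55933, so the groups overlap. Against WT the exact permutation p was 0.286 for ATM-/- (adjusted p = 0.487) and 0.343 for KU55933 (adjusted p = 0.514). Without KU55933 replicates 2 and 3 the inhibitor value minus WT was -0.192 bases. In the same 10 libraries, Sg1 joins had a mean of 1.61 ± 0.585 bases (SD, n = 10) and joins outside chromosomes 12 and 15 had 1.74 ± 0.114 (exact sign-flip permutation p = 0.457, adjusted p = 0.548), with Sg1 higher in 5 of 10 libraries. Direct joins made up 19.0% ± 10.6 in Sg1 and 22.0% ± 1.98 elsewhere (exact sign-flip permutation p = 0.309, adjusted p = 0.487).

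**Figure D5:**
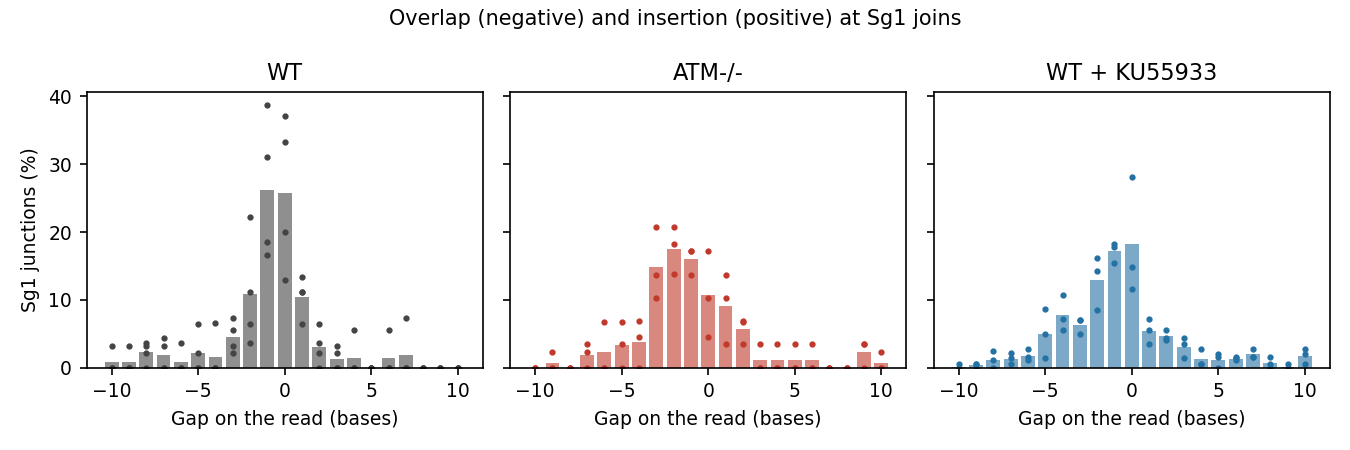
Distribution of the gap at Sg1 joins in bases, from 10 bases of overlap (negative) to 10 inserted bases (positive), as a percentage of classed Sg1 joins; bars are group means and points are libraries. Direct joins (gap 0) average 25.8% in WT, 10.7% in ATM-/- and 18.2% with KU55933, and the points of the groups overlap.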

How the data were processed

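Each deposited file lists 1 junction per row with its prey position and strand on mm9, the build in the submitters' processing notes. The authors named genes and switch regions. How reads were aligned and filtered is not given in the sources used here. Per the file headers, the deposited tables also hold an alignment score, which was not used, and a count of reads per junction in some files, which entered no test. Counts here are counts of deposited rows without normalization by the authors. After 56 repeated rows, 3 mitochondrial rows and 2 pieces of a broken record were left out, 141166 junctions remained. Intervals and limits cover counting error only, and a count of 0 was taken to allow 3.

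Counts for 162 gene names with at least 10 junctions were fitted over all 16 libraries in edgeR 4.0.16 (R 4.3.3) and compared by its quasi-likelihood test. The library size was the number of junctions outside chromosome 15, which holds the break. Benjamini-Hochberg adjustment ran within each comparison, and an adjusted p under 0.05 passed. Values per library were compared by two-sided exact permutation tests, adjusted over 30 tests. They were run on libraries with at least 5 Sg1 junctions, apart from the shares of junctions outside chromosome 15. Both kinds of test were tested on simulated data. Same-numbered libraries deviated together (every correlation above 0.1) only for ATM-/- and KU55933 under anti-CD40/IL4, at 0.459, 0.134 and 0.540; the labels give no shared source, and no other pair of groups met this. The gap column was read as the bases between bait and prey, and no description of it was found in the sources used. In 93.5% of 682 Sg1 reads checked, the bases just before the bait end so placed recurred in other reads. Those reads were placed by the same reading, so this check cannot decide whether the reading is right. All microhomology and direct-join values rest on it. Alternatives were DESeq2 1.42.0, TMM factors, other library sizes, filters, blocks and libraries left out, and 3 were added after seeing the data (without KU55933 replicates 2 and 3, prey ends in GG only, facing the HaeIII site only). The named genes were Sg1, the other switch regions, the 5 names of at least 30 junctions ordered most like Sg1, and a list of AID targets by counts. The members and lists were chosen with earlier results of these data known.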

Additional observations from a re-analysis of the deposited data

How the results depend on the processing

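Each of 45 results was recomputed, in 301 alternatives in all and 315 times without 1 library. Of these, 252 and 296 kept the direction and the side of the threshold (or, without a test, moved by less than the spread between libraries). The fall of Sg1 from WT anti-CD40/IL4 to the RP105 libraries labelled WT passed in all 12 alternatives run (-5.10 to -4.10 on the log2 scale). The fall in the libraries labelled ATM-/- no longer passed with no filter (-2.91), library sizes beyond 1 Mb of the break (-2.71) or the replicate block (-2.95), and ranged over -4.82 to -2.37 without 1 library.

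The difference between labels under RP105 reversed with TMM factors (-0.14), all junctions (-0.17) and DESeq2 (-0.21), ranging over -1.03 to 2.29 without 1 library. The share difference ranged over -0.044 to 0.297 percentage points. The interaction reversed with all junctions (-0.17) and DESeq2 (-0.18), ranging over -0.14 to 3.18. KU55933 against WT reversed beyond 1 Mb (-0.00459, and -0.031 percentage points in share), without KU55933 replicates 2 and 3 (-0.27), and with GG ends (-0.49, and -0.688 percentage points). Facing the site, the shares differed by -0.770 percentage points for KU55933 against WT and 0.244 for ATM-/- against KU55933, both reversed.

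Without KU55933 replicates 2 and 3, KU55933 minus WT was 7.98 percentage points of switch junctions, 14.6 of Sg1 plus Se, -8.34 in the plus-strand share and -0.192 bases of microhomology. ATM-/- minus KU55933 was then -0.870 percentage points of junctions outside chromosome 15, 4.81 of switch junctions, 2.36 of Sg1 plus Se, 2.23 in the plus-strand share, 0.726 bases of microhomology and -17.5 percentage points of direct joins. With GG ends, ATM-/- minus KU55933 reversed in the share of switch junctions (5.16), the plus-strand share (5.17) and microhomology (-0.173), KU55933 minus WT in the plus-strand share (-6.20), and ATM-/- minus WT in the median position (-0.012 kb). With the boundary at the median junction, the upstream share of KU55933 minus WT was -5.62. Without 1 library, ATM-/- minus KU55933 ranged over -0.228 to 0.413 bases of microhomology and -4.19 to 4.20 percentage points upstream, and the median position of KU55933 minus WT over -0.208 to 0.011 kb. Smu with KU55933 against WT reversed with TMM factors (0.18), all junctions (0.30) and DESeq2 (0.28). The cause of these changes was not tested. The alternatives without libraries or with GG ends also use fewer libraries or junctions.

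Of 30 same-number pairs 9 correlated above 0.1 (range -0.344 to 0.540), and only ATM-/- with KU55933 did so in all 3. Its replicate block result, 2 names called instead of 0, stands in the report. With the replicate block, which changed no other Sg1 call than that named above, ATM-/- against WT had -0.64 under anti-CD40/IL4. Names called with KU55933 against WT numbered 1 of 162 as reported, 10 of 162 with TMM factors and 15 of 162 with all junctions. They numbered 4 of 90 with GG ends, 3 of 29 with at least 30 junctions per name, 0 of 162 with DESeq2 and 0 of 6871 with no filter. From anti-CD40/IL4 to RP105 they numbered 3 of 162 in each genotype as reported. Over the alternatives they numbered 3 to 11 (labelled WT) and 0 to 9 (labelled ATM-/-). For ATM-/- against WT, ATM-/- against KU55933 and the interaction, where 0 were reported, they numbered 0 to 2, 0 to 3 and 0 to 2. The number of names tested differed between alternatives, so these counts are not on 1 scale. The highest count, 11, was out of 29 names, and with no filter 6871 names were tested. Counts of at most 5 Sg1 junctions limit every RP105 library.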
